A study of Homo sapiens with 9 samples.

Results

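SH-SY5Y, a neuroblastoma line without MYCN amplification, was set against Kelly and BE(2)C, the MYCN-amplified lines of the same series, to find the genes that separate it from both. A gene was included when all 3 SH-SY5Y libraries lay above, or all 3 lay below, every one of the 6 other libraries by at least 4-fold, with 10 or more in each library of the higher side. Of 19706 usable gene symbols, 292 met this rule, 209 higher and 83 lower in SH-SY5Y. The rule itself uses the levels in these libraries, so the contrast between SH-SY5Y and the other lines is given for these genes as a description, without a test. Levels are on the TPM scale (relative abundance per length of transcript), rescaled over the genes of each library, without spike-ins; they are called TPM below.

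The study sequenced polyadenylated RNA of untreated human neuroblastoma cell lines, 3 libraries per line and 9 in all. SH-SY5Y (MYCN not amplified) is a subclone of the line SK-N-SH, BE(2)C (MYCN amplified) is a clone of the line SK-N-BE(2), and Kelly (MYCN amplified) is a separate line; none was treated, and all were grown in the same medium to partial confluence. Nothing in the labels tells whether the 3 libraries of a line are from separate cultures, so the spread between them, and any p-value, may be technical. With a single line on the non-amplified side, amplification and every other trait of the line cannot be told apart. In these bulk samples, fewer cells of a type and less RNA per cell cannot be told apart either.

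Neuroblastoma arises from the sympathoadrenal branch of the neural crest, and most of its cell lines keep a noradrenergic programme built on HAND2, GATA3 and related factors. MYCN and MYC encode closely related transcription factors that bind DNA with MAX and drive ribosome production, metabolism and cell division; tumours without MYCN amplification often express MYC in its place. The let-7 microRNAs repress MYCN, LIN28B, IGF2BP1 and other growth genes by pairing their seed with sites in the 3′ untranslated region, and LIN28B in turn blocks the maturation of let-7. The title of the series names let-7 in neuroblastoma as its subject.

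The sequences that define this circuit are shown first, because MYCN, LIN28B, IGF2BP1 and IGDCC3, all lower in SH-SY5Y, are among the genes with its sites. The mature let-7 microRNAs (RefSeq, GRCh38.p14) share 1 seed, bases 2 to 8, in capitals; their own levels were not analysed here.
hsa-let-7a-5p: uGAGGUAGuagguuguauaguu
hsa-let-7d-5p: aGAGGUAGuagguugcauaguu
hsa-let-7g-5p: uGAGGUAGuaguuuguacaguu
hsa-miR-98-5p: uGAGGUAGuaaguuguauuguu

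The pairing letters in a transcript are CTACCTC, or TACCTCA where an A stands opposite the first base of the microRNA, and CTACCTCA where both hold. In the longest 3′ untranslated region of each gene in GENCODE release 29, read on the transcript strand, IGF2BP1 and LIN28B had 5 such sites each, IGDCC3 had 4 and MYCN had 2. The sites of IGF2BP1, LIN28B and IGDCC3 with the full CTACCTCA and both sites of MYCN are printed here 5′ to 3′ on GRCh38, with the matching letters in capitals.
IGF2BP1, chr17:49051060-49051083, plus strand: ctgtgtgcgaagtaaaCTACCTCA
IGF2BP1, chr17:49053697-49053720, plus strand: ccagcagtgctagtaaCTACCTCA
IGF2BP1, chr17:49054351-49054374, plus strand: agtataaatggattaaCTACCTCA
LIN28B, chr6:105078811-105078834, plus strand: tacccggttgcaaagtCTACCTCA
LIN28B, chr6:105081420-105081443, plus strand: tgtttacagcaaaaggCTACCTCA
IGDCC3, chr15:65328450-65328473, minus strand: ttttggctctcagcacCTACCTCA
IGDCC3, chr15:65328368-65328391, minus strand: gagcccgaatgcactcCTACCTCA
IGDCC3, chr15:65328217-65328240, minus strand: atgtgaaagaaaatgtCTACCTCA
MYCN, chr2:15946586-15946609, plus strand: cctaagtactgtaataaTACCTCA
MYCN, chr2:15946950-15946973, plus strand: cttatagcactttgaaaTACCTCA

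Genes made up 15.7 ± 0.504% of the back-transformed values in SH-SY5Y, against 10.4 ± 0.950% in Kelly and 14.4 ± 1.14% in BE(2)C (SD, n = 3 libraries each), with ERCC spike-in RNA as the bulk of the remainder. Within the gene total, mitochondrial genes were 17.7 ± 0.456% in SH-SY5Y, 17.6 ± 1.87% in Kelly and 30.6 ± 5.52% in BE(2)C, which lowers every other gene of BE(2)C on the TPM scale. The unit hides how deeply each library was sequenced, so depth is unknown and no counting interval is given. Rescaled over themselves alone, none of the 61 abundant spike-ins met the 4-fold rule. Of these, 6 separated SH-SY5Y from the other 6 libraries at all, by at most 1.06-fold. Among the 19706 gene symbols, 5680 did so at any fold. Spike-ins are added RNA on a scale of their own, so this does not test the gene differences. The noradrenergic markers HAND2, GATA3, ISL1, PHOX2A and DBH were present in all 9 libraries, at 138 TPM or more. Of the mesenchymal markers, YAP1 stayed under 1 in every library and PRRX1, FN1 and CD44 in all of SH-SY5Y. The other markers of that set were present in SH-SY5Y, SNAI2 at 13.8 to 15.7 and VIM at 65.4 to 71.1 TPM. Summed levels of 10 endothelial, muscle, hepatic and erythroid markers were under 1 in every library, and leukocyte markers summed to 9.51 to 11.2 TPM in SH-SY5Y, 7.76 to 12.4 in Kelly and 9.23 to 16.1 in BE(2)C. The epithelial markers summed to 3.45 to 5.77 in SH-SY5Y, 7.19 to 12.2 in Kelly and 4.47 to 5.64 in BE(2)C. Some abundant household genes had implausibly low values, such as the chaperone gene HSPA8 at 3.3003, 5.02 and 5.399 in SH-SY5Y, against 0.644, 2.04 and 3.36 in Kelly and 6.63, 9.42 and 13.04 in BE(2)C, so a value of 0 is given only as listed.

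The 209 genes higher in SH-SY5Y were 1.06% of all 19706 symbols and the 83 lower were 0.421%. By the same rule Kelly stood apart from the other lines in 176 genes (0.893%), 120 higher and 56 lower, and BE(2)C in 190 (0.964%), 44 higher and 146 lower. The balance between higher and lower depends on the scaling. With trimmed-mean factors, which set the bulk of genes equal between libraries, SH-SY5Y had 163 genes higher and 112 lower; with quantile normalization it had 147 and 127, and with the mitochondrial genes left out 211 and 111. Of the 209 genes, 163 met the rule with the factors too, as did 82 of the 83. The genes just inside the threshold on the higher side were PHACTR2 (4.002-fold) and SFXN3 (4.01-fold), and just outside it INSRR (3.99-fold) and CLDN15 (3.96-fold). On the lower side CEBPB (4.12-fold) and CNKSR2 (4.18-fold) lay just inside, and DACH1 (3.99-fold) just outside.

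Many of these genes had values under 1 on their lower side; the file holds no counts, so a 0 there may be a failed estimate and is not read as absent expression. Among the 209 higher genes, 60 were under 1 TPM in each of the 6 amplified libraries, and ANKRD45, FOXR2, ADAMTS10 and SLC1A1 were listed at 0 in all of them. Among the 83 lower genes, 34 were under 1 in every SH-SY5Y library, and LHX9, NRIP1, NKX6-1, LOXL1, EYA4, PELI2, PRUNE2 and RNF5 were listed at 0 in all 3. At the other end, 29 higher genes stood at 100 or more in every SH-SY5Y library, and 33 reached 10 or more in some amplified library. The median gap between the nearest libraries of the 2 sides was 9.50-fold for the higher genes and 13.5-fold for the lower ones.

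**Figure D1:**
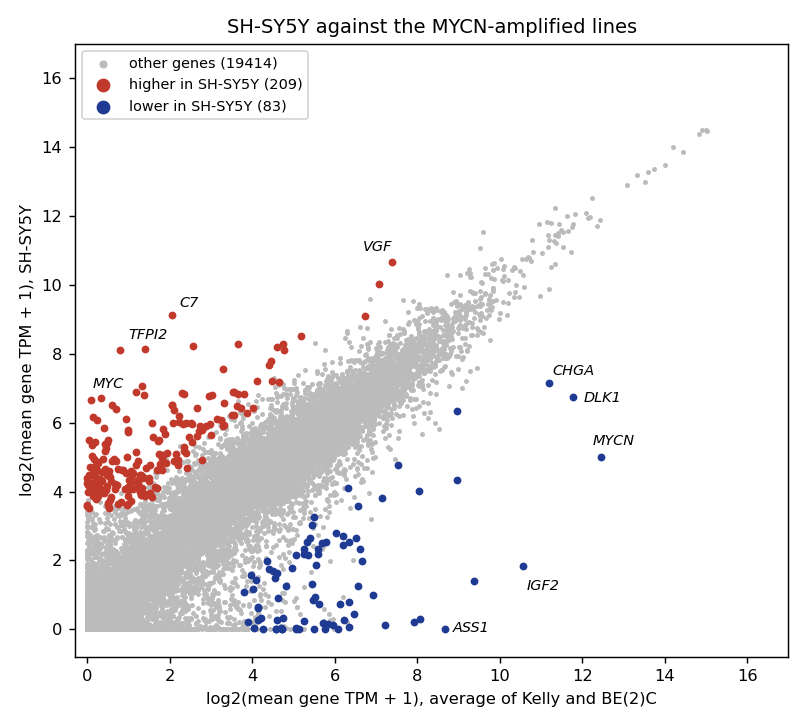
Mean level of each gene in SH-SY5Y (vertical axis) against the average of the Kelly and BE(2)C means (horizontal axis), both as log2(TPM + 1). Red points are the 209 genes higher and blue points the 83 genes lower in SH-SY5Y by the 4-fold rule; grey points are all other genes. MYCN, DLK1, CHGA, IGF2 and ASS1 lie far to the lower right, and VGF, C7, TFPI2 and MYC toward the upper left.

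Across all genes, limma, run with a mean-variance trend on log2-transformed scaled TPM plus 1, called 7853 of 13077 tested genes (60.1%) between SH-SY5Y and the average of the amplified lines at a Benjamini-Hochberg adjusted p under 0.05. Of these, 4000 were higher in SH-SY5Y (30.6% of tested genes) and 3853 lower (29.5%). That fit includes the trimmed-mean factors, from 0.758 (BE(2)C replicate 2) to 1.17 (SH-SY5Y replicate 2), and adds 1 before the logarithm. The printed levels include neither. A log2 fold change can therefore differ clearly from the ratio of the levels, above all where levels are low. Calls that were higher made up 50.9% of all calls in this fit, 69.7% with gene totals only, 62.6% when the total also left mitochondrial genes out, 86.3% on values as deposited and 49.8% with quantile normalization. The median log2 fold change moved by 0.27, 0.16 and 0.48 with the first 3 of these alternatives and by -0.04 with the last. With so many genes called, the gene lists used below are described by their counts beside these shares. The balance of higher and lower calls within a list also depends on the scaling: on values as deposited, where spike-ins stay in the total, it turned in the lists of catecholamine genes (8 higher, 7 lower), neuropeptides (10 and 7), growth factors (9 and 7), NOTCH genes (7 and 5), neurotransmitter genes (13 and 11), nuclear receptors (13 and 5) and p53 targets (17 and 1). A gene outside the 292 was named from a list only when it was called, had one of the 3 largest changes of its list and averaged at least 10 TPM on its higher side.

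MYCN and MYC stood on opposite sides. MYCN was at 30.1, 33.1 and 30.7 in SH-SY5Y, against 5947, 6393 and 6367 in Kelly and 4320.4, 4959 and 5793 in BE(2)C. Every SH-SY5Y library was far below every amplified one, by at least 131-fold, and Kelly lay above BE(2)C on this scale. MYC was at 103, 106 and 102 in SH-SY5Y, against 0.187, 0 and 0.108 in Kelly and 0.348, 0.535 and 0.357 in BE(2)C. The SH-SY5Y values were close to each other and at least 191-fold above the highest of the other 6, all of which were under 1. Of the 12 tested genes of the MYC family and MAX network, 4 were called higher in SH-SY5Y and 2 lower. Beyond MYC and MYCN, the MAX partners MXD4 (0.56 ± 0.09 on the log2 scale, SE) and MXI1 (0.56 ± 0.09), which oppose MYC, were called higher. MLXIP, a glucose-responsive relative, was called lower (-0.47 ± 0.10), but was 0.14 above on values as deposited. With the Kelly libraries left out, MXD4 (0.24) and MLXIP (-0.29) were no longer called.

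**Figure D2:**
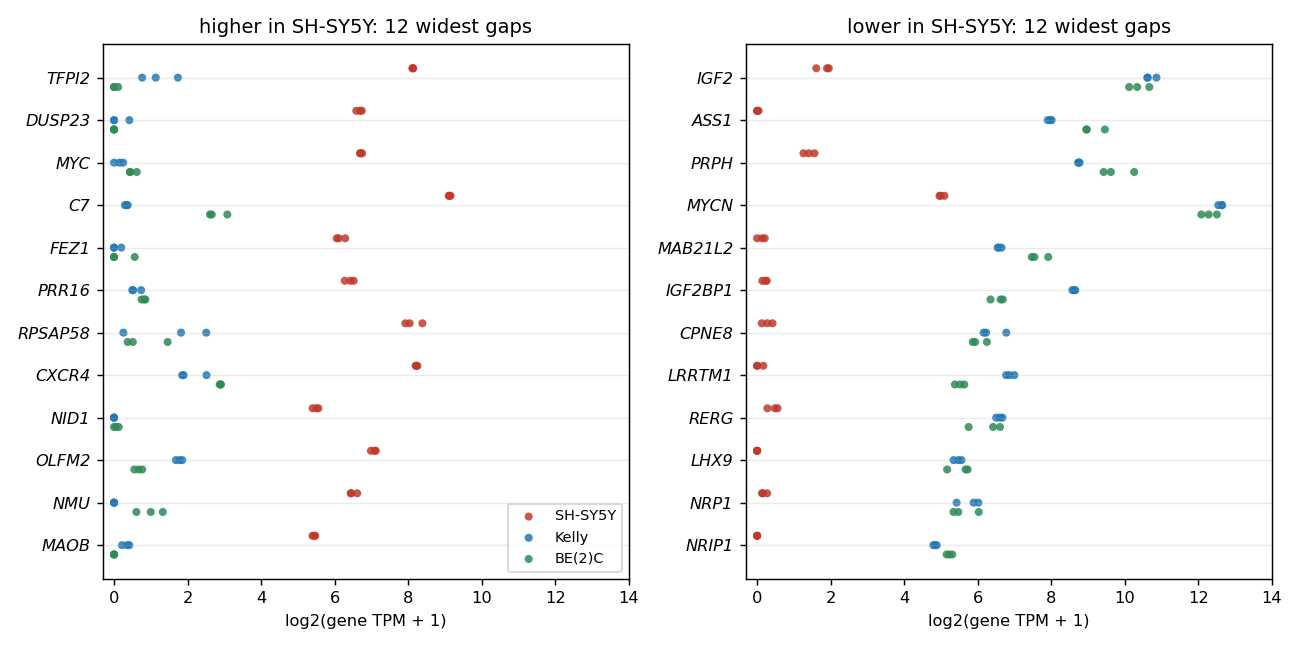
Levels in each library of the 12 genes with the widest gap higher in SH-SY5Y (left panel) and the 12 with the widest gap lower in SH-SY5Y (right panel), as log2(TPM + 1). Each point is a library, red for SH-SY5Y, blue for Kelly and green for BE(2)C. For every gene the rule itself separates the red points from all others. Kelly and BE(2)C lie apart in some, such as C7 and ASS1.

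The let-7 axis held 4 of the separating genes. LIN28B, which blocks let-7 maturation, was at 10.4, 11.2 and 11.7 in SH-SY5Y, against 102, 115 and 108 in Kelly and 76.5, 74.4 and 84.01 in BE(2)C. It was lower in SH-SY5Y by at least 6.37-fold, and present there in all 3 libraries. IGF2BP1, an oncofetal RNA-binding protein that stabilises growth mRNAs and carries 5 of the sites shown above, was at 0.171, 0.199 and 0.103 in SH-SY5Y, against 379, 393 and 401 in Kelly and 101, 80.4 and 97.3 in BE(2)C. It was under 1 in every SH-SY5Y library, and the Kelly values were all above those of BE(2)C. IGDCC3, an immunoglobulin-family surface protein with 4 sites, was at 0.442, 0.870001 and 0.8602 in SH-SY5Y, against 127, 105 and 106 in Kelly and 38.1, 47.1 and 56.2 in BE(2)C. These 3 genes were all on the lower side in SH-SY5Y, where the rule itself leaves no overlap. IRS2, an adaptor of insulin and IGF receptors, ran the other way, at 142, 152 and 140.3 in SH-SY5Y, against 26.7, 24.9 and 27.03 in Kelly and 20.2, 18.7 and 26.2 in BE(2)C.

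Of the 39 tested genes of the let-7 axis and let-7 targets, 9 were called higher in SH-SY5Y and 22 lower, beside 30.6% and 29.5% of all genes. Their median log2 fold change was -0.25, against 0.03 over every gene tested. With spike-ins kept in the total, the counts turned to 16 higher and 8 lower of 36, with the median still 0.40 below that of all genes there. Genes of the list outside the 4 included TRIM71, a let-7 target that acts in stem cells, at 0.381 ± 0.0979 in SH-SY5Y, against 25.8 ± 2.58 in Kelly and 3.44 ± 0.741 in BE(2)C (-3.10 ± 0.16). The insulin receptor gene INSR was called higher, at 34.6 ± 4.31 in SH-SY5Y, against 0.01604, 0 and 0.0517 in Kelly and 13.2 ± 1.27 in BE(2)C (2.90 ± 0.13). ARID3A was called lower (-1.19 ± 0.10). HMGA2, a chromatin protein and classic let-7 target, was low everywhere, at 0.791, 0.395 and 0.718 in SH-SY5Y, against 1.63, 3.09 and 2.32 in Kelly and 1.03, 0.579 and 2.86 in BE(2)C. Its call (-0.88 ± 0.28; adjusted p = 0.0221, limma) was lost without SH-SY5Y replicate 2 or 3. ARID3B (-0.75 ± 0.09) lay between the amplified lines, at 30.8, 29.6 and 26.6 in SH-SY5Y, against 67.8, 72.2 and 72.6 in Kelly and 21.7, 21.9 and 24.8 in BE(2)C, and was not called without Kelly (-0.10). LIN28A was under 1 in all 9 libraries and was not tested.

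The share of genes with a let-7 site was near that of all tested genes on both sides. The lower genes did have more sites per kilobase. That rate includes IGF2BP1, LIN28B and IGDCC3 with 5, 5 and 4 sites, and no other lower gene had more than 2. The rate without these genes was not computed. At least 1 site stood in 17 of the 83 lower genes (20.5%) and in 34 of the 204 higher genes with an annotated 3′ untranslated region (16.7%), beside 2307 of 12828 tested genes (18.0%). Per kilobase of that region the lower genes had 0.174 sites, the higher ones 0.0903 and all tested genes 0.110. At least 2 sites stood in 7 of the 83 lower genes and 7 of the 204 higher ones, beside 447 of the 12828. These differences were not tested. Besides the 4 genes above, LHX9, FAM43A and DLC1 of the lower genes had 2 sites each. SMARCA2, which has 3, was higher in SH-SY5Y. A match is only a run of letters, and these counts describe the annotation, not binding.

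Several growth factors and enzymes were among the lower genes. IGF2, an insulin-like growth factor and a ligand of IGF1R, was at 2.73, 2.86 and 2.05 in SH-SY5Y, against 1854, 1574 and 1560.2 in Kelly and 1107, 1289 and 1620.1 in BE(2)C. The SH-SY5Y libraries were all under 3, and the Kelly and BE(2)C ranges overlapped; INS-IGF2 overlaps IGF2 in the annotation, so its reads may be included. ASS1, the enzyme that joins citrulline and aspartate on the way to arginine, was listed at 0, 0.0278 and 0 in SH-SY5Y, against 250.5, 238 and 256 in Kelly and 701, 499 and 493 in BE(2)C. It was under 1 in every SH-SY5Y library and highest in BE(2)C. BMP7, a ligand of the TGF-beta superfamily, was at 0.705, 1.29 and 0.9601 in SH-SY5Y, against 208, 234 and 189.96 in Kelly and 29.2, 31.5 and 35.1 in BE(2)C. HGF, the ligand of the receptor MET, was at 0, 0.0786 and 0 in SH-SY5Y, against 43.7, 29.1 and 29.2 in Kelly and 29.9, 23.7 and 38.9 in BE(2)C. The levels of HGF overlapped between Kelly and BE(2)C, while those of BMP7 did not. FABP5, a fatty acid carrier, was at 78.6, 73.1 and 86.7 in SH-SY5Y, against 417, 509 and 522 in Kelly and 558, 486 and 476 in BE(2)C.

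Of 28 tested growth factors and their binding proteins, 10 were called higher in SH-SY5Y and 14 lower. IGFBP5, which binds IGFs outside the cell, was among the separating genes on the higher side, at 265, 279.6 and 274 in SH-SY5Y, against 15.9, 16.1 and 16.8 in Kelly and 41.1, 30.6 and 36.4 in BE(2)C. It was lowest in Kelly and showed no overlap between any of the lines. TGFB1 was called lower, at 20.9 ± 3.94 in SH-SY5Y, against 116 ± 10.2 in Kelly and 62.3 ± 11.4 in BE(2)C (-2.26 ± 0.13). GDF15, a stress-induced ligand, was called higher, at 15.04 ± 2.68 in SH-SY5Y, against 2.54 ± 0.533 in Kelly and 1.38 ± 0.525 in BE(2)C (2.22 ± 0.22). IGFBP7 (-2.81 ± 0.80) was at 8.33, 0.188 and 0.171 in SH-SY5Y, against at most 7.75 in Kelly and 66.8, 45.03 and 45.7 in BE(2)C; its call was lost without BE(2)C (-0.82) and without SH-SY5Y replicate 2 or 3.

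Several secreted and matrix proteins were among the higher genes. TFPI2, a Kunitz-type inhibitor of matrix serine proteases, was at 280.3, 276 and 278 in SH-SY5Y, against 1.196, 2.33 and 0.699 in Kelly and 0, 0.0811 and 0 in BE(2)C. SH-SY5Y lay at least 118-fold above all others. C7, a complement component that takes part in the membrane attack complex, was at 557, 547 and 567 in SH-SY5Y, against 0.294, 0.268 and 0.227 in Kelly and 7.46, 5.31 and 5.1002 in BE(2)C. It was under 1 in all of Kelly and higher in BE(2)C. NID1, a basement membrane glycoprotein, was at 41.2, 46.03 and 44.3 in SH-SY5Y, against 0 in all 3 Kelly libraries and 0, 0.0353 and 0.0935 in BE(2)C. TNC, the matrix protein tenascin C, was at 15.9, 16.2 and 19.8 in SH-SY5Y, against 0, 0 and 0.0724 in Kelly and 0 in all 3 BE(2)C libraries. Both matrix genes were under 1 or listed at 0 in all 6 amplified libraries. PXDN, a peroxidase that cross-links collagen IV, was at 291 to 297 in SH-SY5Y, against 3.43 to 49.8 in the other 6, and MFAP4, a microfibril protein, at 144 to 152 in SH-SY5Y, against 7.68 to 29.3 in the other 6. OLFM2, a secreted olfactomedin, was at 126 to 138 in SH-SY5Y, against 0.465 to 2.61 in the other 6. PLAUR, the receptor of urokinase, was at 31.01 to 33.6 in SH-SY5Y, against 0.5301 to 5.63 in the other 6. PXDN, MFAP4 and OLFM2 were each detected in all 6 amplified libraries.

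Of 32 tested matrix proteases and inhibitors, 17 were called higher and 3 lower, with a median of 0.32; the thrombin receptor gene F2R (2.86 ± 0.17) was higher, TIMP1 (-1.51 ± 0.13) and MMP15 (-1.49 ± 0.10) lower. Collagens and other matrix proteins were split, with 14 of 35 higher and 13 lower, against 10 and 15 without BE(2)C, 20 and 8 without Kelly, 17 and 4 on values as deposited and 12 each with quantile normalization. BGN, a small matrix proteoglycan, was lower, at 0, 0.0313 and 0 in SH-SY5Y, against 12.5 ± 4.201 in Kelly and 74.04 ± 5.49 in BE(2)C. LAMA4, a laminin chain, was also lower (-3.12 ± 0.19). Of 11 complement genes 4 were higher and 3 lower. Besides C7, the higher ones included C5, at 12.9 to 14.6 in SH-SY5Y, against 0.625 to 1.24 in the other 6, and CD59, which blocks the membrane attack complex (1.64 ± 0.15). CLU, which also binds that complex, was on the lower side, at 0.903, 4.39 and 3.61 in SH-SY5Y, against 31.2, 25.03 and 26.3 in Kelly and 164, 150.04 and 199.95 in BE(2)C. On the lower side the matrix enzymes LOXL1, a lysyl oxidase, and PCOLCE2, an enhancer of procollagen processing, were at 0 in SH-SY5Y, against 19.2 to 91.9 in the other 6 and at 0.741 to 0.84001 in SH-SY5Y, against 36.2 to 50.1 in the other 6. Genes of mesenchymal identity were more often lower, 16 of 25 tested against 5 higher, with a median of -0.72, but 6 each on values as deposited. ANXA2 (0.866 ± 0.651 in SH-SY5Y, against 6.85 ± 2.48 in Kelly and 57.3 ± 20.3 in BE(2)C) and S100A11 (0, 0.358 and 0.3603 in SH-SY5Y, against 0, 1.06 and 0.385 in Kelly and 122 ± 13.6 in BE(2)C) were at their highest in BE(2)C. Of the mesenchymal markers, CD44 was at 0.432, 0.308 and 0.6996 in SH-SY5Y, against 9.46, 12.7 and 12.3 in Kelly and 3.97, 2.16 and 2.66 in BE(2)C. SNAI2 was at 15.6, 13.8 and 15.7 in SH-SY5Y, against 0, 2.33 and 1.15 in Kelly and 19.98, 14.8 and 16.3 in BE(2)C, and its difference changed sign without Kelly (-0.59). VIM lay between the amplified lines, at 65.4, 66.6 and 71.1 in SH-SY5Y, against 25.5, 32.7 and 31.1 in Kelly and 200.5, 144 and 137 in BE(2)C, and its fold change (-0.32 ± 0.11) turned to 0.22 on values as deposited and to 1.04 without BE(2)C; its call was also lost with gene totals only (-0.02) and with the replicate number as a block.

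Surface receptors were found on both sides. CXCR4, the receptor of the chemokine CXCL12, was at 297, 303 and 293 in SH-SY5Y, against 4.72, 2.71 and 2.61 in Kelly and 6.33, 6.48 and 6.45 in BE(2)C. SH-SY5Y was at least 45.2-fold above all others. PDGFRA, a receptor kinase for platelet-derived growth factors, was at 23.04, 25.7 and 22.9 in SH-SY5Y, against 1.77, 1.32 and 1.001 in Kelly and 0.218, 0.467 and 0.206 in BE(2)C. NGFR, the low-affinity neurotrophin receptor, was at 19.96, 23.4 and 20.4 in SH-SY5Y, against 2.93, 2.09 and 1.21 in Kelly and 1.38, 0.522 and 0.477 in BE(2)C. Both receptors were higher in Kelly than in BE(2)C by their means. NGFR also marks Schwann cell precursors. Of the other 11 markers of that lineage 5 were under 1 in every library, S100B and PMP22 were not called, and GFAP was called lower. All 12 summed to 78.0 to 82.4 TPM in SH-SY5Y, 27.6 to 55.2 in Kelly and 31.2 to 46.9 in BE(2)C; their part in the NGFR difference was not tested. EPHA2 (33.2 to 37.5 in SH-SY5Y, against 1.24 to 6.83 in the other 6) and EPHB4 (18.8 to 20.7 in SH-SY5Y, against 0 to 3.92 in the other 6), receptors of ephrins, were higher as well, as was the ephrin gene EFNA2 (51.3 to 60.996 in SH-SY5Y, against 0.257 to 4.86 in the other 6). On the lower side EGFR was at 4.24, 3.57 and 4.31 in SH-SY5Y, against 28.9, 34.9 and 33.8 in Kelly and 73.9, 49.7 and 59.7 in BE(2)C. GFRA2, the co-receptor of neurturin, was at 1.43, 2.15 and 0.636 in SH-SY5Y, against 27.97, 28.6 and 37.7 in Kelly and 30.4, 21.3 and 17.1 in BE(2)C. Both were present in SH-SY5Y at low levels. Of 30 tested receptor kinases and co-receptors, 10 were called higher and 15 lower. GFRA1 (0.0695 ± 0.0734 in SH-SY5Y, against 26.4 ± 3.29 in Kelly and 0, 0 and 0.0296 in BE(2)C) and EPHB3 (13.98 ± 1.15 in SH-SY5Y, against 108 ± 4.34 in Kelly and 14.8 ± 5.05 in BE(2)C) were high in Kelly alone, and EPHB3 was not called without Kelly (-0.46). ALK, a receptor kinase mutated in some neuroblastomas, was above both other lines but did not reach the 4-fold gap, at 101, 107 and 102 in SH-SY5Y, against 58.3, 58.6 and 59.3 in Kelly and 12.4, 11.3 and 14.8 in BE(2)C.

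Signalling genes inside the cell, named here after their values were seen, included feedback inhibitors of the ERK pathway. DUSP6, a phosphatase of ERK, was at 119, 105 and 106 in SH-SY5Y, against 8.12, 11.9 and 14.7 in Kelly and 1.21, 2.25 and 1.79 in BE(2)C. IL17RD, which restrains FGF signalling, was at 54.2 to 65.7 in SH-SY5Y, against 0.704 to 7.28 in the other 6, and SPRED3, of the Sprouty-related family, at 12.2 to 14.9 in SH-SY5Y, against 0.852 to 2.403 in the other 6. All 3 were lower in BE(2)C than in Kelly by their mean. PRKCA, a protein kinase C, was at 303, 324 and 305 in SH-SY5Y, against 25.5, 26.4 and 29.99 in Kelly and 29.1, 19.6 and 22.9 in BE(2)C. It was one of the 29 higher genes at 100 or more, and its Kelly and BE(2)C values overlapped. DUSP23, a small dual-specificity phosphatase, was at 102, 106 and 95.1 in SH-SY5Y, against 0, 0 and 0.337 in Kelly and 0 in all 3 BE(2)C libraries. The G-protein gamma subunit genes GNG7 (17.6 to 19.6 in SH-SY5Y, against 0.05796 to 0.451 in the other 6), GNG8 (51.1 to 59.9 in SH-SY5Y, against 0 to 1.93 in the other 6) and GNG11 (182 to 194 in SH-SY5Y, against 1.51 to 18.3 in the other 6) were all higher. FEZ1, an adaptor of kinesin transport in axons, was at 76.99, 68.05 and 65.5 in SH-SY5Y, against 0.146, 0 and 0 in Kelly and 0, 0 and 0.477 in BE(2)C. On the lower side were RERG, a Ras-like GTPase (0.213 to 0.469 in SH-SY5Y, against 52.8 to 101 in the other 6), CPNE8, a copine (0.0914 to 0.337 in SH-SY5Y, against 57.2 to 108 in the other 6), and the actin cross-linkers FLNC (1.205 to 1.56 in SH-SY5Y, against 37.8 to 152 in the other 6) and LCP1 (0.557 to 0.7898 in SH-SY5Y, against 14.6 to 135 in the other 6).

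Transcription factors and chromatin regulators were found on both sides, and those outside the lists are named after their values were seen. NOTCH2, a NOTCH receptor, was at 26.01, 32.6 and 30.7 in SH-SY5Y, against 0.147, 0.1001 and 0.171 in Kelly and 0.0742, 0.211 and 0.0477 in BE(2)C. HES4, a repressor of the HES family, was at 37.1, 41.1 and 34.5 in SH-SY5Y, against 0.954, 0 and 0 in Kelly and 0.199, 0.727 and 0.263 in BE(2)C. Both were under 1 in every amplified library. Of the 20 tested NOTCH pathway genes 6 were called higher and 10 lower. NOTCH3 was higher, at 28.8 ± 3.71 in SH-SY5Y, against 6.91 ± 2.98 in Kelly and 1.697 ± 0.2496 in BE(2)C (2.48 ± 0.25), and the inhibitory ligand gene DLL3 was lower, at 18.2 ± 1.48 in SH-SY5Y, against 112 ± 4.33 in Kelly and 83.9 ± 16.9 in BE(2)C (-2.63 ± 0.11). REST, the repressor of neuronal genes outside the nervous system, was at 28.1, 27.2 and 30.8 in SH-SY5Y, against 1.69, 2.64 and 2.101 in Kelly and 0.533, 0.581 and 0.567 in BE(2)C. SMARCA2, an ATPase of SWI/SNF chromatin remodellers, was at 18.8, 24.7 and 18.1 in SH-SY5Y, against 0.186, 0 and 0.0845 in Kelly and 0.209, 0.138 and 0.214 in BE(2)C. CHD5, a remodeller of the NuRD family and a candidate tumour suppressor on the short arm of chromosome 1, was at 24.1, 25.98 and 23.01 in SH-SY5Y, against 0.263, 0.355 and 0.4298 in Kelly and 0.234, 0.411 and 0.394 in BE(2)C. SMARCA2 and CHD5 were under 1 in all 6 amplified libraries, while REST was detectable in all of them. CDKN1C, an inhibitor of cyclin-dependent kinases, was at 27.6 to 32.1 in SH-SY5Y, against 0.145 to 1.57 in the other 6, and HDAC9, a histone deacetylase, at 71.95 to 83.5 in SH-SY5Y, against 9.81 to 16.5 in the other 6.

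Nuclear receptors and retinoid genes were also found on both sides. RORB was at 107, 119 and 125 in SH-SY5Y, against 2.05, 2.597 and 2.58 in Kelly and 0.0643, 0.104 and 0.0852 in BE(2)C. NR2F2, an orphan receptor of the COUP family, was at 0.108, 0.178 and 0.0812 in SH-SY5Y, against 44.2, 64.6 and 74.995 in Kelly and 55.2, 30.6 and 64.5 in BE(2)C, and NRIP1, a corepressor of nuclear receptors, was at 0 in all 3 SH-SY5Y libraries, against 27.8, 28.5 and 26.7 in Kelly and 38.5, 34.6 and 36.5 in BE(2)C. ALDH1A3, which makes retinoic acid, was higher in SH-SY5Y (14.3 to 17.6 in SH-SY5Y, against 0.254 to 2.18 in the other 6), and CRABP1, which binds it, was called lower, at 71.7 ± 3.24 in SH-SY5Y, against 237 ± 8.48 in Kelly and 238 ± 14.5 in BE(2)C (-2.01 ± 0.07). Of the 30 tested genes of this list 9 were called higher and 10 lower.

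Homeobox and neural-crest factors were more often lower, 27 of 52 tested against 13 higher, with a median of -0.55, but 13 lower and 17 higher on values as deposited. LHX9, a LIM-homeobox factor, was at 0 in all 3 SH-SY5Y libraries, against 39.5, 46.02 and 43.3 in Kelly and 34.9, 49.8 and 51.9 in BE(2)C. MAB21L2, a developmental regulator, was at 0.102, 0 and 0.154 in SH-SY5Y, against 92.03, 99.04 and 93.9 in Kelly and 240.2, 176 and 185 in BE(2)C. HOXC8 was at 0.449, 0.125 and 0 in SH-SY5Y, against 28.5, 25.1 and 32.5 in Kelly and 52.3, 37.99 and 45.5 in BE(2)C, and EBF3 at 0.453, 1.19 and 0.342 in SH-SY5Y, against 28.3, 50.1 and 41.2 in Kelly and 71.3, 45.4 and 50.7 in BE(2)C. All 4 were at 1.19 or less in every SH-SY5Y library. NKX6-1, EYA4 and ZFPM2, developmental regulators outside the list, were at 21.3 to 47.5, 18.4 to 33.4 and 17.02 to 35.4 in the amplified lines, and their highest SH-SY5Y values were 0, 0 and 0.0442. Called genes outside the 292 included HOXD13 (0.126, 0.105 and 0 in SH-SY5Y, against 49.6 ± 8.06 in Kelly and 3.16 ± 0.591 in BE(2)C) and SOX9 (0.3404 ± 0.228 in SH-SY5Y, against 23.7 ± 2.74 in Kelly and 10.1 ± 2.75 in BE(2)C), both at 0.340 or less by their SH-SY5Y mean.

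The noradrenergic transcription factors were not uniformly lower or higher: 14 of 26 were called higher in SH-SY5Y and 11 lower. SIX3, a homeobox factor, was at 359.9, 380.1 and 355 in SH-SY5Y, against 17.5, 18.1 and 14.02 in Kelly and 59.5, 45.6 and 57.1 in BE(2)C. INSM2, a zinc-finger factor of neuroendocrine cells, was at 18.8, 19.2 and 19.4 in SH-SY5Y, against 637, 658 and 642 in Kelly and 324, 328 and 374 in BE(2)C. EYA1, a transcriptional coactivator with phosphatase activity, was at 0.279 to 0.719 in SH-SY5Y, against 13.9 to 24.6 in the other 6. For SIX3 and INSM2 the 3 lines did not overlap at all. The core factors differed much less. HAND2 was at 1411, 1453 and 1438 in SH-SY5Y, against 1125, 1104 and 1150.3 in Kelly and 903, 729 and 834 in BE(2)C. GATA3 was at 639.96, 675 and 629 in SH-SY5Y, against 434, 373 and 363 in Kelly and 258, 219 and 264 in BE(2)C. Both were highest in SH-SY5Y, by 0.28 ± 0.04 for HAND2 and 0.76 ± 0.07 for GATA3 on the log2 scale, and both were called. INSM1, related to INSM2, was listed at 0 in all 3 SH-SY5Y libraries, against 26.6, 22.5 and 21.6 in Kelly and 1.45, 4.41 and 3.65 in BE(2)C.

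Genes for making and breaking down catecholamines also split. TH, tyrosine hydroxylase, which starts catecholamine synthesis, was at 0, 0.265 and 0.395 in SH-SY5Y, against 579, 469.6 and 451 in Kelly and 32.04, 34.1 and 33.3 in BE(2)C. It was under 1 in every SH-SY5Y library and much higher in Kelly than in BE(2)C. MAOB, a mitochondrial enzyme that degrades monoamines, was at 42.7, 41.1 and 43.3 in SH-SY5Y, against 0.163, 0.333 and 0.285 in Kelly and 0 in all 3 BE(2)C libraries. BCHE, butyrylcholinesterase, acts on choline esters and not on catecholamines. It was at 0.0399, 0 and 0 in SH-SY5Y, against 20.5, 22.97 and 22.8 in Kelly and 126, 102 and 102 in BE(2)C. DBH, which turns dopamine into noradrenaline, was at 1125, 1145 and 1081 in SH-SY5Y, against 2071, 1590.0 and 1578 in Kelly and 363, 434 and 489.995 in BE(2)C. SH-SY5Y lay between the other lines for DBH (0.08 ± 0.14; adjusted p = 0.640, limma), with a value of -0.76 when BE(2)C was left out and 0.94 when Kelly was. Of 17 tested genes 3 were called higher and 8 lower. SLC18A2, the vesicular monoamine transporter, was lower, at 0, 0.263 and 0.152 in SH-SY5Y, against 97.03 ± 23.4 in Kelly and 5.29 ± 0.821 in BE(2)C, and PNMT, which makes adrenaline, was higher, at 10.5 ± 2.16 in SH-SY5Y, against 2.75 ± 0.248 in Kelly and 1.04 ± 0.526 in BE(2)C.

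Proteins of dense-core granules and neuropeptides included some of the most abundant genes. VGF, a secreted neuropeptide precursor, was at 1599, 1689 and 1615 in SH-SY5Y, against 27.1, 29.3 and 29.5 in Kelly and 261, 302 and 348 in BE(2)C. SH-SY5Y exceeded BE(2)C by at least 4.59-fold and Kelly by far more. CHGA, chromogranin A, was at 140.4, 141 and 141 in SH-SY5Y, against 3035, 2592 and 2479.8 in Kelly and 1748, 2005 and 2085 in BE(2)C. DLK1, a surface protein of immature neuroendocrine cells, was at 118, 101 and 101 in SH-SY5Y, against 5012, 4239 and 4502 in Kelly and 1869, 2615 and 2853 in BE(2)C. For both the SH-SY5Y values were at least 12.4-fold below the lowest of the 6, yet still over 100 TPM. NMU, the peptide neuromedin U, was at 86.4, 85.6 and 96.8 in SH-SY5Y, against 0 in all 3 Kelly libraries and 0.524, 1.51 and 0.998 in BE(2)C. NPTX2, a synaptic pentraxin, was at 96.8, 91.9 and 83.97 in SH-SY5Y, against 0, 0.0251 and 0 in Kelly and 2.73, 7.49 and 8.44 in BE(2)C. NMU was listed at 0 in all of Kelly, and NPTX2 in 2 Kelly libraries. CALCB was higher too (11.5 to 13.9 in SH-SY5Y, against 0 to 0.741 in the other 6), but the related gene CALCA lies beside it and their reads may have been divided unequally. Of the 23 tested genes of the list, 9 were called higher and 13 lower. CHGB was lower, at 129 ± 0.727 in SH-SY5Y, against 437 ± 23.8 in Kelly and 642 ± 48.8 in BE(2)C (-2.33 ± 0.08). SST, somatostatin, was listed at 0 in all 3 SH-SY5Y libraries, against 153, 104 and 100.2 in Kelly and 4.97, 3.85 and 5.27 in BE(2)C, and ADCYAP1, the peptide PACAP, at 0 in all 3 SH-SY5Y libraries, against 1.25, 1.45 and 4.11 in Kelly and 92.997, 62.5 and 59.3 in BE(2)C.

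Among cytoskeletal and RNA-binding proteins of neurons, PRPH, the intermediate filament peripherin, was at 1.395, 1.95 and 1.65 in SH-SY5Y, against 429.7, 435 and 422 in Kelly and 1218, 785 and 684 in BE(2)C. It was at 1.95 or less in all 3 SH-SY5Y libraries. Of 28 tested filament and microtubule genes 14 were called higher and 10 lower, with NEFH (63.1 ± 1.34 in SH-SY5Y, against 586 ± 54.8 in Kelly and 99.4 ± 21.2 in BE(2)C) lower and TUBB4A (67.3 ± 4.26 in SH-SY5Y, against 1.01 ± 1.31 in Kelly and 16.6 ± 6.29 in BE(2)C) and DPYSL4 (276 ± 8.98 in SH-SY5Y, against 87.7 ± 8.13 in Kelly and 19.3 ± 1.86 in BE(2)C) higher. ELAVL4, a neuronal RNA-binding protein of the Hu family, was at 214, 221 and 229 in SH-SY5Y, against 18.7, 21.6 and 18.4 in Kelly and 24.3, 19.4 and 22.5 in BE(2)C. CELF5, a splicing factor, was at 31.1, 49.99 and 38.3 in SH-SY5Y, against 0.0251, 0 and 0 in Kelly and 0.0226, 0.428 and 0 in BE(2)C. Of 23 tested RNA-binding proteins 12 were called higher and 4 lower, beside 30.6% and 29.5% of all genes, including CELF3 (1.21 ± 0.07), CELF4 (0.86 ± 0.21) and MSI1 (0.91 ± 0.11); MSI1 was not called without BE(2)C (0.26).

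Synaptic and guidance genes were found on both sides. SV2C, a synaptic vesicle protein, was at 87.3, 91.7 and 90.2 in SH-SY5Y, against 6.39, 6.22 and 6.03 in Kelly and 0.0742, 0.0719 and 0.0738 in BE(2)C. ISLR2, a neuronal surface protein with leucine-rich repeats, was at 311, 318 and 299 in SH-SY5Y, against 12.8, 27.04 and 20.8 in Kelly and 2.86, 2.83 and 2.84 in BE(2)C. In both, Kelly lay above BE(2)C and below SH-SY5Y. LRRTM1, a postsynaptic adhesion protein, was at 0, 0 and 0.124 in SH-SY5Y, against 108, 115 and 126 in Kelly and 48.6, 40.6 and 44.8 in BE(2)C. The semaphorin receptors NRP1 and NRP2 were at 0.0966, 0.208 and 0.113 in SH-SY5Y, against 41.9, 58.1 and 63.7 in Kelly and 64.2, 39.5 and 43.3 in BE(2)C for NRP1 and 0, 0.0706 and 0 in SH-SY5Y, against 27.3, 38.9 and 29.3 in Kelly and 20.7, 16.2 and 16.4 in BE(2)C for NRP2. PLXND1, a plexin that acts with neuropilins, was at 6.902 to 7.38 in SH-SY5Y, against 30.99 to 47.4 in the other 6. These 3 receptor genes were low together, whereas the guidance genes SEMA5A (22.3 to 24.9 in SH-SY5Y, against 0 to 2.06 in the other 6), UNC5D (22.1 to 27.1 in SH-SY5Y, against 0 to 1.94 in the other 6) and IGLON5 (107 to 112 in SH-SY5Y, against 0 to 17.4 in the other 6) were higher. Of 54 tested guidance and adhesion genes 24 were called higher and 24 lower. SEMA3C (67.8 ± 5.83 in SH-SY5Y, against 1.31 ± 0.414 in Kelly and 14.1 ± 1.42 in BE(2)C) and PLXNA4 (111 ± 4.403 in SH-SY5Y, against 3.78 ± 0.779 in Kelly and 29.1 ± 11.1 in BE(2)C) were higher without reaching the 4-fold gap. Of 35 synaptic vesicle and release genes 16 were higher and 12 lower, with CPLX2 (-2.36 ± 0.08) and SYNGR1 (-2.35 ± 0.11) lower; DOC2B (1.93 ± 0.10) was called higher, with 0.02 and no call when BE(2)C was left out.

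Receptors and channels followed the same split. The glutamate receptor gene GRIA3 was at 31.2 to 35.7 in SH-SY5Y, against 0 to 2.68 in the other 6, and GRIK3 was lower, at 3.77 to 5.18 in SH-SY5Y, against 33.8 to 123 in the other 6. The muscarinic receptor gene CHRM2 was at 23.3 to 26.4 in SH-SY5Y, against 0.0824 to 4.46 in the other 6, and SLC1A1, a glutamate transporter, at 11.3, 10.1 and 11.3 in SH-SY5Y, and every Kelly and BE(2)C library listed it at 0. Of 37 tested receptors and transporters 13 were called higher and 19 lower, with a median of -0.53. The adrenergic receptor gene ADRA2A (1.36 ± 0.108 in SH-SY5Y, against 65.3 ± 6.59 in Kelly and 8.34 ± 0.937 in BE(2)C) was lower, and OPRM1, an opioid receptor, was listed at 23.9, 29.7 and 28.96 in SH-SY5Y, against 0 in all 3 Kelly libraries and 11.5, 9.25 and 14.4 in BE(2)C. Of 39 channels 17 were higher and 15 lower. KCNK1, a leak potassium channel, was at 30.7 to 31.7 in SH-SY5Y, against 0 to 2.24 in the other 6.

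Genes of growth and biosynthesis were lower across many members at modest size. Of 44 tested targets of the MYC family, mainly genes of ribosome production and metabolism, 32 were called lower in SH-SY5Y and 4 higher, with a median of -0.64. NPM1, a nucleolar protein, was at 947 ± 11.9 in SH-SY5Y, against 1888 ± 196 in Kelly and 2778 ± 460.5 in BE(2)C (-1.56 ± 0.07). MTHFD1, a folate enzyme, was at 99.6 ± 9.73 in SH-SY5Y, against 204 ± 27.5 in Kelly and 245 ± 8.31 in BE(2)C (-1.46 ± 0.10). LDHA ran the other way (1.70 ± 0.10), on values of 38.2 ± 1.66 in SH-SY5Y, against 16.4 ± 0.802 in Kelly and 4.74 ± 0.461 in BE(2)C that are low for a glycolytic enzyme. Of 37 genes of amino acid, polyamine and one-carbon metabolism, 26 were lower and 2 higher (median -0.60). Besides ASS1 they included the amino acid transporter gene SLC7A5, at 78.6 ± 4.38 in SH-SY5Y, against 305 ± 8.32 in Kelly and 331 ± 20.9 in BE(2)C (-2.30 ± 0.06), and BCAT1, which starts the breakdown of branched-chain amino acids (-2.26 ± 0.06). GLDC, a glycine-cleaving enzyme, was higher (2.63 ± 0.12). It was at 37.7 ± 1.13 in SH-SY5Y, against 23.4 ± 1.77 in Kelly and only 0.232 ± 0.0267 in BE(2)C. The 30 proliferation genes summed to 5268 to 5326 TPM in SH-SY5Y, 6287 to 7070 in Kelly and 4697 to 6068 in BE(2)C. MCM5 was at 223, 260 and 224 in SH-SY5Y, against 553, 555 and 591 in Kelly. In BE(2)C it was at 295, 253 and 280, which overlapped SH-SY5Y. Against the average of the amplified lines, 23 of the 30 were lower and 5 higher (median -0.45). Among the lower ones were AURKA (-1.41 ± 0.14), PLK1 (-1.19 ± 0.08) and MCM5 (-1.04 ± 0.06). These counts shift with the scaling: with values as deposited, MYC targets gave 14 higher and 14 lower, amino acid genes 9 and 14, and proliferation genes 12 and 6, while each list's median stayed 0.33 to 0.51 below that of all genes. With gene totals only they gave 7 and 23, 4 and 20, and 7 and 11.

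The remaining lists were mixed. Of 31 tested p53 targets 9 were called higher and 10 lower. PHLDA3 (62.1 ± 3.39 in SH-SY5Y, against 57.6 ± 5.8998 in Kelly and 0.425 ± 0.104 in BE(2)C) and TNFRSF10B (101 ± 7.07 in SH-SY5Y, against 78.8 ± 12.8 in Kelly and 2.91 ± 0.467 in BE(2)C) were low in BE(2)C alone; without that line their log2 fold changes were -0.016 and 0.24, and neither was called. Of 22 genes of MHC class I, interferon and antigen presentation 6 were higher and 9 lower, turning to 8 and 4 with gene totals only, to 7 and 4 with mitochondrial genes left out and to 6 and 5 without BE(2)C. Among the lower were CALR (-1.04 ± 0.06) and ERAP1 (-1.45 ± 0.24). STAT2 (1.03 ± 0.30) was higher, but not called without SH-SY5Y replicate 3 or without BE(2)C (0.79). Of 21 cancer-testis antigen genes on the X chromosome and elsewhere, 13 were higher and 7 lower, with a median of 1.68. They come in near-identical copies and their values are uncertain: MAGEA3 was at 59.5 to 67.5 in SH-SY5Y, against 0 to 9.43 in the other 6, MAGEA6 at 63.3, 46.8 and 65.6 in SH-SY5Y, against 14.7, 11.8 and 14.6 in Kelly and 0 in all 3 BE(2)C libraries, and XAGE1A and XAGE1B, which are copies of each other, at 45.2 to 56.3 and 45.2 to 61.2 in SH-SY5Y.

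**Figure D3:**
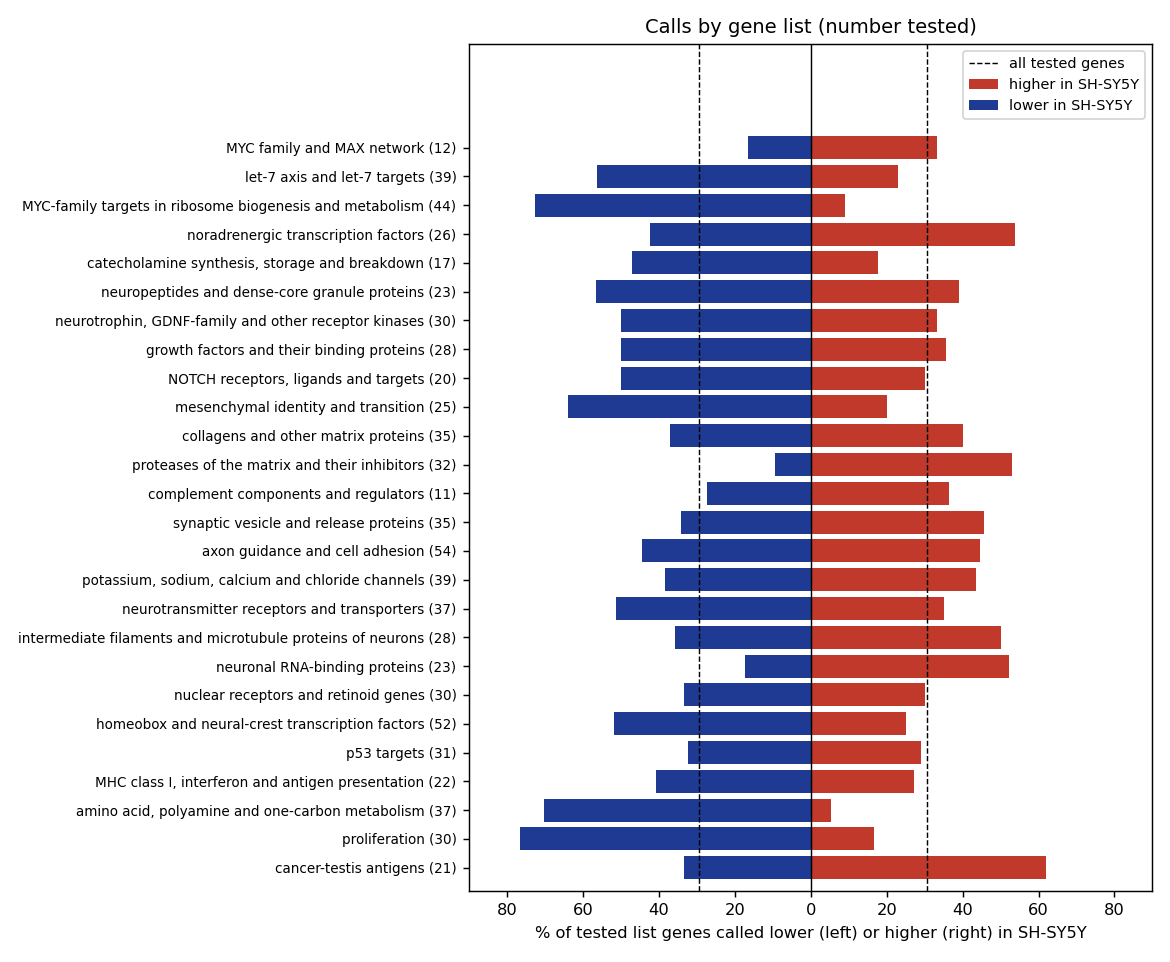
Share of the tested genes of each list that limma called higher (red, to the right) and lower (blue, to the left) in SH-SY5Y, in percent; the number tested stands beside each name. Dashed lines mark the shares over all tested genes, 30.6% higher and 29.5% lower. Proliferation, MYC-family targets and amino acid genes reach furthest to the left, and cancer-testis antigens furthest to the right.

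Some of the separating genes are uncertain for technical reasons of annotation. RPSAP58, a pseudogene of the ribosomal gene RPSA, was at 333, 241 and 262 in SH-SY5Y, against 2.54, 0.193 and 4.69 in Kelly and 0.293, 0.426 and 1.75 in BE(2)C, and reads of RPSA may be assigned to it. TUBB, a tubulin gene that cells use widely, was at 0.312, 0 and 0.473 in SH-SY5Y, against 31.3, 30.6 and 30.8 in Kelly and 22.4, 19.5 and 19.5 in BE(2)C, an implausibly low level for SH-SY5Y. RNF5 (listed at 0 in all of SH-SY5Y), ZNF117 with ERV3-1, PCDHGA7 with PCDHGB7, RASA4 and TNFSF12 share sequence or position with other genes in the same way. TFPI2, FEZ1, MAB21L2, LRRTM1 and RERG overlap a gene on the opposite strand in the annotation, as do REST, TNC, SLC1A1, PEG10, EPHB4 and others. Whether strand was used in quantifying them was not stated in any label.

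Kelly and BE(2)C were compared directly. The rule did not use this contrast, but it did set bounds on the values in these libraries. Of the 209 higher genes limma called 57 higher and 51 lower in Kelly than in BE(2)C (51.7%), and of the 83 lower genes 21 and 28 (59.0%), beside 52.5% of all 13077 tested genes (27.9% higher and 24.6% lower in Kelly). The shares cannot be set against each other for the higher genes, since 60 of the 209 were under 1 TPM in all 6 amplified libraries. There a difference can hardly show on the log2(value + 1) scale. Nor can they for the lower genes, which had to reach 10 TPM in each of those libraries, while tested genes did not. MYCN (-0.00 ± 0.12 on the log2 scale, SE; adjusted p = 0.991), IGF2 (0.00 ± 0.16; adjusted p = 0.997) and LIN28B (0.14 ± 0.09; adjusted p = 0.198) were not called between them. CHGA (0.15 ± 0.12; adjusted p = 0.347) and PRKCA (-0.11 ± 0.10; adjusted p = 0.371) were not called either. Other genes differed strongly. TH was 3.55 ± 0.16 higher in Kelly (adjusted p = 3.2e-07), BMP7 2.37 ± 0.15 (adjusted p = 1.9e-06) and IGF2BP1 1.75 ± 0.08 (adjusted p = 3.2e-07). These 3 were lower in SH-SY5Y than in both lines. VGF (-3.68 ± 0.12; adjusted p = 4.8e-08), IGLON5 (-3.92 ± 0.20; adjusted p = 5.8e-07) and C7 (-2.68 ± 0.13; adjusted p = 5.3e-07) were lower in Kelly than in BE(2)C. BCHE (-2.58 ± 0.12) and ASS1 (-1.49 ± 0.11) were lower in Kelly as well, and SV2C (2.68 ± 0.14) was higher. In all, 65 of the 209 and 27 of the 83 were called with at least a 2-fold difference. The share of all tested genes at that fold was not counted, so these counts are not read as particular to the separating genes.

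**Figure D4:**
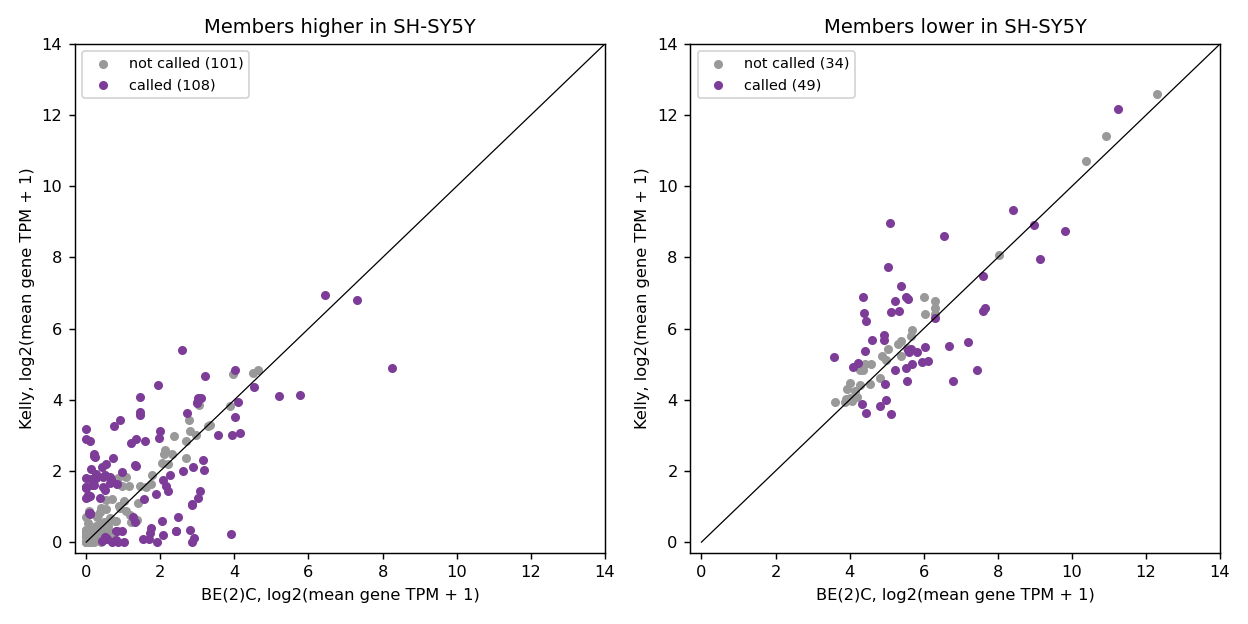
Mean level in Kelly (vertical axis) against BE(2)C (horizontal axis), as log2(TPM + 1), of the 209 genes higher (left panel) and the 83 genes lower (right panel) in SH-SY5Y. Purple points were called between the amplified lines by limma (108 and 49 genes) and grey points were not; the diagonal marks equal levels.

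The share of separating genes varied between chromosomes. Gene positions are from GENCODE release 29 on GRCh38, where all 292 genes were found. Chromosome 7 held 29 of the 209 higher genes, 6.49% of the 447 genes there that reached the level the rule asks of SH-SY5Y, beside 2.45% over all chromosomes. The fit across all genes gave a like picture for the chromosome as a whole. Of its 612 tested genes 290 were called higher (47.4%) and 120 lower (19.6%), with a median log2 fold change 0.32 above that of all genes. That difference was 0.30 to 0.36 with the other scalings, 0.22 without BE(2)C and 0.42 without Kelly. Chromosome 18 was shifted as far in the fit, with 83 of 187 tested genes higher (44.4%) and 29 lower (15.5%) and a median 0.33 above that of all genes, but 0.06 without BE(2)C and 0.64 without Kelly; it held 3 of the 209 higher genes. Chromosomes 12 and 22 lay the other way. On chromosome 22 limma called 45 of 314 genes higher and 160 lower, with a median 0.55 below that of all genes. On chromosome 12 it called 112 of 690 higher and 314 lower, 0.33 below. Among the lower genes chromosome 8 held 9, or 3.75% of its 240 genes that reached the level in all amplified libraries, beside 1.24% over all chromosomes. The copy number of these chromosomes was not analysed here.

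**Figure D5:**
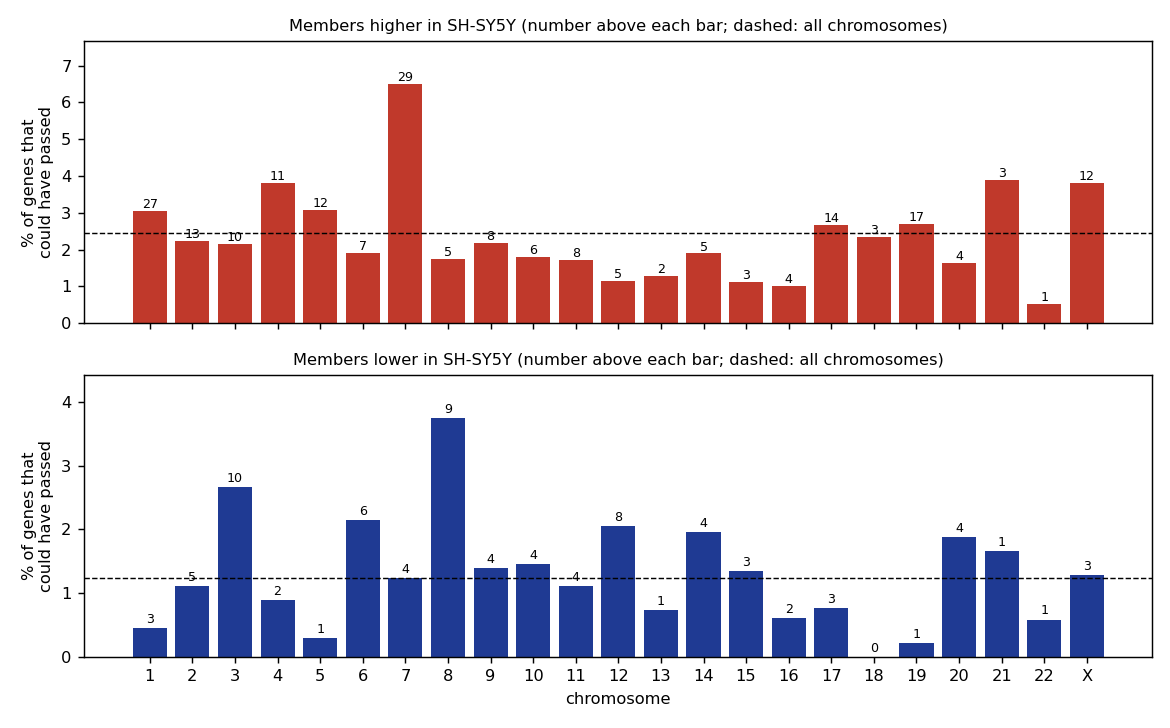
Genes higher (upper panel) and lower (lower panel) in SH-SY5Y by the 4-fold rule on each chromosome, as a percentage of the genes there that reached 10 TPM in every library of the higher side. Numbers above the bars count the genes, and the dashed lines mark all chromosomes together, at 2.45% and 1.24%; chromosome 7 stands highest in the upper panel and chromosome 8 in the lower one.

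Some of these genes were neighbours. On chromosome 7, TFPI2, GNG11 and PEG10 lay within chr7:93885396-94669695. PEG10, an imprinted gene derived from a retrotransposon, was at 527, 558 and 573 in SH-SY5Y, against 114, 130.2 and 124 in Kelly and 89.3, 78.1 and 92.8 in BE(2)C. Between them lie genes named for their position, after their values were seen. COL1A2, a chain of collagen I, was at 13.4, 15.6 and 14.5 in SH-SY5Y, against 0 in all 3 Kelly libraries and 0, 5.58 and 0.540 in BE(2)C. CASD1 (log2 fold change 1.31) and BET1 (0.45) were called higher, GNGT1, which overlaps TFPI2, was called lower (-0.87; adjusted p = 0.0335, limma), and SGCE was not called (0.09; adjusted p = 0.531, limma). Another group of 5, GPC2, NYAP1, EPHB4, VGF and NAT16, lay within chr7:100169606-101180276. GPC2, a heparan sulphate proteoglycan of developing neurons, was at 205, 214 and 188 in SH-SY5Y, against 24.2, 22.2 and 29.7 in Kelly and 10.9, 18.1 and 14.8 in BE(2)C. On chromosome 11, IGF2 and TH (chr11:2129112-2171877) were lower in SH-SY5Y, while KCNQ1 and CDKN1C (chr11:2444684-2885773) were higher, at 18.997 to 21.8 in SH-SY5Y, against 0 to 0.265 in the other 6 for KCNQ1. Other groups higher in SH-SY5Y were DUSP23, IGSF8, F11R and TSTD1 on chromosome 1 (chr1:159780932-161038990) and C17orf100, YBX2, TMEM102, TNFSF12 and ATP1B2 on chromosome 17 (chr17:6651718-7657768).

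The E-box CACGTG, to which MYC and MYCN bind with MAX, was counted in the 250 bases upstream of the start of each gene in RefSeq's promoter table (GRCh38.p14); the motif reads the same on both strands. It stood in 6 of the 172 higher genes with an entry (3.49%) and in 4 of the 57 lower genes (7.02%), beside 955 of 10624 tested genes (8.99%). The mean GC content of these stretches was 66.2% for the higher genes, 65.0% for the lower ones and 64.3% for all tested genes.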

How the data were processed

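Polyadenylated RNA of 3 untreated neuroblastoma lines was measured in 9 libraries, 3 per line. The deposited values are log10(TPM + 1) per gene, where the log10 base and the TPM unit were read from the values, whose sums once undone are near the total that TPM has. Tools listed per the submitters' processing notes are HISAT 0.1.6 and Salmon 0.3.2, with the build GRCh38 and no roles; no source used here says how transcripts were joined into genes. The design allowed for counts or TPM, and the deposited TPM led to limma rather than a count test. Of 19837 entries, 92 spike-ins and 11 reporter or selection entries were dropped and the rest rescaled to the TPM total; 28 entries whose names had turned into dates stayed in the totals only.

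For the fit, trimmed-mean factors (trimming 30% of the log ratios and 5% of the levels) were applied, and a gene was tested if 3 libraries or more held it at 1 or above, on log2(value + 1) with limma 3.58.1 (trend, Benjamini-Hochberg adjusted p under 0.05, two-sided) in R 4.3.3. All 9 libraries shared 1 fit, and the contrast was SH-SY5Y minus the average of the Kelly and BE(2)C means. The pseudocount understates the change of low genes. Summaries used Python 3.11.15, pandas 2.3.3 and numpy 2.4.6, figures matplotlib 3.10.9, and positions GENCODE release 29. Simulated data with known changes were used to check the fit. TPM keeps no depth, so precision rests on the spread between libraries. Alternatives covered scaling, pseudocount, filter, the rule's fold and minimum, left-out libraries and a replicate block.

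The genes and gene lists were chosen with earlier results of these data known. Named were the 12 genes with the widest gap on each side, separating genes in a list, those nearest the threshold, up to 3 called genes per list averaging 10 or more on the higher side, and a fixed set of marker and pathway genes; other separating genes were named after their values were seen. Some genes that these rules name are not reported here.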

Additional observations from a re-analysis of the deposited data

How the results depend on the processing

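The number of separating genes follows the rule. A 2-fold gap gave 564 higher and 197 lower in SH-SY5Y and an 8-fold gap 113 and 51; a minimum of 30 gave 93 and 37, and a minimum of 3 gave 322 and 134. Values as deposited, with spike-ins in the total, gave 68 and 9, and quantile normalization 127 lower. With all Kelly libraries left out, an alternative chosen after seeing the data, 584 were higher and 165 lower, and with BE(2)C left out 357 and 267; fewer libraries make the rule easier to meet. Leaving out each library in turn gave 211 to 226 higher and 84 to 91 lower. In the fit over all genes, values as deposited gave 6461 genes higher and 1029 lower, and gene totals only gave 2429 lower. Without each library in turn 6627 to 7714 genes were called, 3209 to 3974 higher and 3407 to 3740 lower. Between Kelly and BE(2)C 6050 to 6659 were called, with 93 to 105 of the higher and 44 to 50 of the lower separating genes; on values as deposited 61 of the higher genes were called. Directions turned for MLXIP (0.14), PHOX2A (0.19) and VIM (0.22) on values as deposited, for DBH (-0.76), PHLDA3 (-0.016) and VIM (1.04) without BE(2)C, and for SNAI2 (-0.59) without Kelly; the cause was not tested. No shared effect of the replicate numbers was seen. Deviations of same-numbered libraries correlated at -0.0544 to 0.0258 and others at -0.0384 to 0.0406. The labels do not say whether the numbers pair libraries, and these correlations cannot settle it. With the replicate number as a block 7634 genes were called, 3893 higher and 3741 lower, and 6634 between Kelly and BE(2)C, among them 103 higher and 47 lower separating genes. Depth is unknown, so low values carry no counting interval.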
